A study of Mus musculus with 18 samples.

Results

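The genes described here are 8 components of interleukin-6 (IL-6) family signalling: the ligand genes Il6 and Lif, the receptor chain genes Il6ra, Il6st, Osmr and Lifr, the transcription factor gene Stat3 and the inhibitor gene Socs3. They were found by symbol among the 54532 Ensembl genes of the deposited count table. All 8 were present, and all 8 passed the filter on low counts that left 17833 genes for testing. RNA-seq was made from gastrocnemius, a calf muscle, of female C57BL/6 mice. The mice carried either floxed Zfp697 alleles (labelled flox/flox, here flox) or a skeletal muscle knockout of Zfp697 (mKO). Each genotype was studied in control mice housed in conventional cages, after 10 days of hindlimb unloading, and after unloading followed by 3 days of reloading. The 6 groups had 3 libraries each, 18 in all. The knockout was conditional to skeletal muscle, so other cells of the muscle keep the gene. The driver of the deletion and the age of the mice are not given in the sources used here, and the flox mice are those that the design text calls wild-type. Whether a group's 3 libraries are 3 mice is not stated in the labels, and each p-value reflects variation among those libraries, which may be technical.

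Cytokines of the IL-6 family bind receptor complexes that share the signal-transducing chain gp130, the product of Il6st. Ligand binding activates Janus kinases (JAKs), which phosphorylate STAT3, and STAT3 then enters the nucleus and activates genes that include Socs3, whose product blocks the receptor and so limits the signal. In skeletal muscle, IL-6 is known both as a cytokine released by contracting fibres and as a product of immune cells during repair, and leukaemia inhibitory factor (LIF, the product of Lif) is known for effects on myoblasts.

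Promoters were searched for binding motifs because an inhibitor gene driven by STAT3 and a cytokine gene driven by NF-kB are the textbook regulatory ends of the pathway. RefSeq promoter windows (GRCm38.p6) were found for all 8 genes, 9 windows in all since Lifr has more than 1 start, and the 250 bases before each start were searched. The STAT palindrome TTCNNNGAA, which reads the same on both strands, occurred in 2306 of 32851 windows (7.02%), and in 1 window of these genes, that of Socs3. An NF-kB motif, GGGA and TTCC with any 2 bases between, searched on both strands after the first search had been seen, occurred in 397 windows (1.21%), and in 1 window of these genes, that of Il6. No window of these genes held both. The stretches around the matches are shown 5′ to 3′ on the gene's strand with the matched bases in capitals. The Il6 match lay 44 to 35 bases before the RefSeq start and the Socs3 match 154 to 146 bases before it. The Il6 stretch is chr5:30013020-30013113 on the plus strand and the Socs3 stretch is chr11:117969462-117969570 on the minus strand.
Il6: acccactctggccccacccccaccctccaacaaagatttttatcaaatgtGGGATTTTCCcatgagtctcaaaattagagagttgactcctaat
Socs3: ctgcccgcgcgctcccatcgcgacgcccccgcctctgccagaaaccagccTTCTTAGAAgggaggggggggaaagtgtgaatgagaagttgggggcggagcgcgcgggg
A match is a description of these letters and was not tested as a binding site.

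The libraries held 45069595 to 51592566 counts each. Levels are in CPM, counts divided by library size after scaling by the trimmed mean of M-values (TMM), and a gene is called where its adjusted p is under 0.05 over all 17833 genes. Zfp697, the targeted gene, had 1, 0.984 and 1.6 CPM in flox control, 1.58, 1.74 and 1.61 in flox unloading and 2.79, 2.33 and 2.57 in flox reloading. In mKO muscle it had 1.05, 1.31 and 1.25 CPM in control, 2.47, 1.09 and 1.41 in unloading and 1.6, 1.95 and 1.47 in reloading. The genotypes overlapped in control and unloading, and each mKO library was below each flox library in reloading (log2 difference -0.61 ± 0.25, SE, adjusted p = 0.172). Such a lack of overlap in reloading held for 22.4% of all genes tested, in either direction. The deleted part of the gene is not given in the sources used here, so whole-gene counts do not check the genotype labels. Muscle fibre genes (6 genes, among them Ckm and Acta1, none at 0) summed to 99600 to 115000 CPM in flox reloading, 115000 to 139000 in mKO reloading and 97700 to 134000 elsewhere. In reloading all 6 had a log2 difference above 0 in mKO against flox muscle (median 0.27), with 1 called, Ckm (4.91% of all genes). Fibro-adipogenic progenitor markers (8 genes, none at 0) summed to 877 to 1140 CPM in flox reloading, 968 to 980 in mKO reloading and 939 to 1250 elsewhere. Of these 8, 4 were called higher and 1 lower in flox muscle from unloading to reloading, where 31.9% of all genes were called. Over the same step in mKO muscle 2 were called higher, where 18.3% of all genes were called. In reloading 2 (Cd34 and Ly6a) were called lower in mKO than in flox muscle, against 4.91% of all genes. Macrophage and monocyte markers (9 genes, none at 0 in any group) summed to 86.3 to 166 CPM in the control and unloading groups, 278 to 407 in flox reloading and 133 to 189 in mKO reloading. Endothelial markers (6 genes, none at 0 in any group) summed to 371 to 424 CPM in flox reloading, 324 to 358 in mKO reloading and 264 to 333 elsewhere. Neutrophil markers (8 genes) stayed at 0.644 to 4.37 CPM apart from 10.0 CPM in flox unloading replicate 3, and T cell markers (6 genes) at 0.765 to 1.97 CPM. In whole muscle, more cells of a type and more RNA per cell cannot be told apart.

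**Figure D1:**
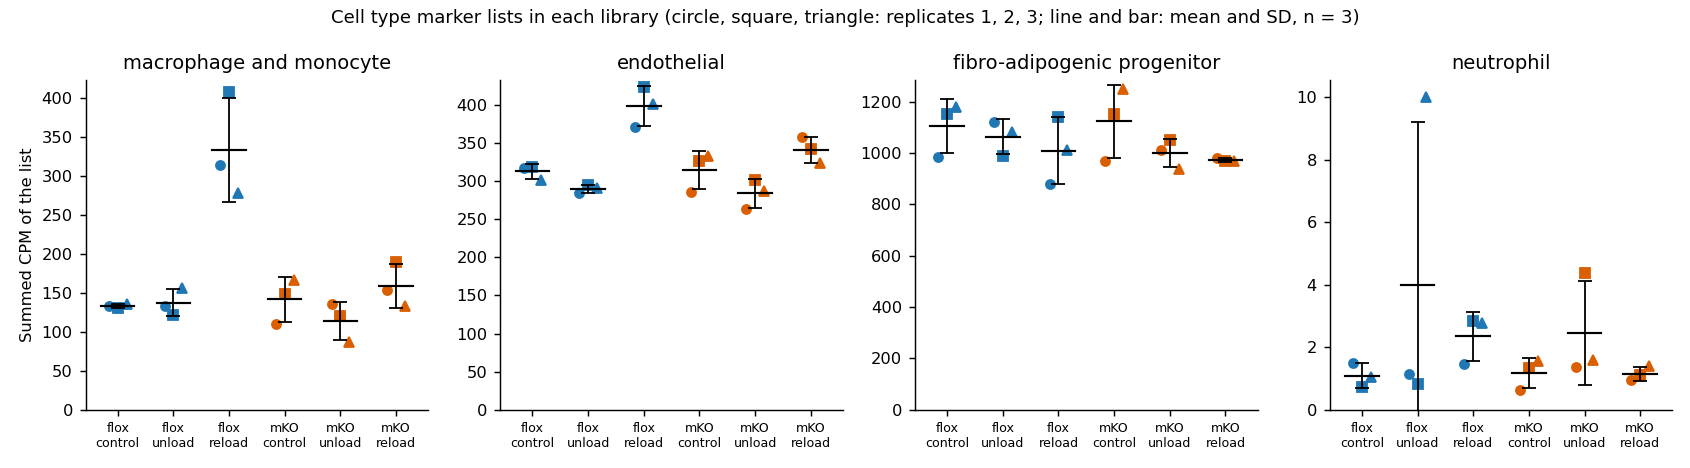
Summed CPM of 4 cell type marker lists in each library (points, replicates 1 to 3), with the mean and SD of each group (n = 3). The macrophage and monocyte sum is 278 to 407 CPM in the 3 flox reloading libraries and at most 189 CPM in every other library.

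Calls were most frequent between unloading and reloading. In flox muscle, Il6, Lif, Stat3 and Socs3 rose and Il6ra and Lifr fell from unloading to reloading, 6 of 8 called against 31.9% of all genes tested. In mKO muscle Stat3 rose and Il6ra and Il6st fell over the same step, 3 of 8 called against 18.3% of all genes. From control to unloading Il6ra rose in flox muscle, 1 of 8 called against 5.74% of all genes, and Il6st rose in mKO muscle, 1 of 8 against 7.75%. Reloaded flox muscle differed from flox control in 4 of 8 (22.6% of all genes), with Il6, Stat3 and Socs3 higher and Lifr lower. Reloaded mKO muscle differed from mKO control in 0 of 8 by edgeR (2.18% of all genes), with 2 at an unadjusted p under 0.05 (16% of all genes) and 1 called by DESeq2. Between genotypes, Osmr was lower in reloaded mKO than in reloaded flox muscle, 1 of 8 against 4.91% of all genes.

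Median changes over the 8 genes were set beside those over all genes. From unloading to reloading the median log2 change of the 8 was 0.55 in flox muscle and -0.26 in mKO muscle, against 0 and 0.01 for all genes. From control to reloading it was 0.55 in flox muscle and -0.07 in mKO muscle, against 0 for all genes in both. The macrophage and monocyte list had medians of 1.24 in flox and 0.34 in mKO muscle from unloading to reloading. Of its 9 genes 8 and 2 were called higher, where 31.9% and 18.3% of all genes were called in either direction. The part of these and of the fibre, endothelial and fibro-adipogenic markers in the changes of the 8 genes was not tested.

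Per length, the receptor chain and signal transducer genes among the 8 were far above the ligand genes Il6 and Lif. Mean CPM per kilobase of exon over the 18 libraries was 24.8 for Il6st, 7.94 for Stat3, 7.47 for Lifr, 2.05 for Socs3, 1.16 for Osmr, 1.01 for Il6ra, 0.161 for Lif and 0.075 for Il6. Among the 8, Il6 and Lif had the widest spread of group means and Il6st the narrowest. The highest group mean in CPM was 7.72 times the lowest for Il6, 3.39 times for Lif, 2.88 times for Socs3 and 2.28 times for Il6ra. It was 1.95 times for Stat3, 1.5 times for Osmr, 1.45 times for Lifr and 1.25 times for Il6st. The highest mean was that of flox reloading for Il6, Lif, Osmr, Stat3 and Socs3, that of flox unloading for Il6ra and Lifr, and that of mKO unloading for Il6st.

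**Figure D2:**
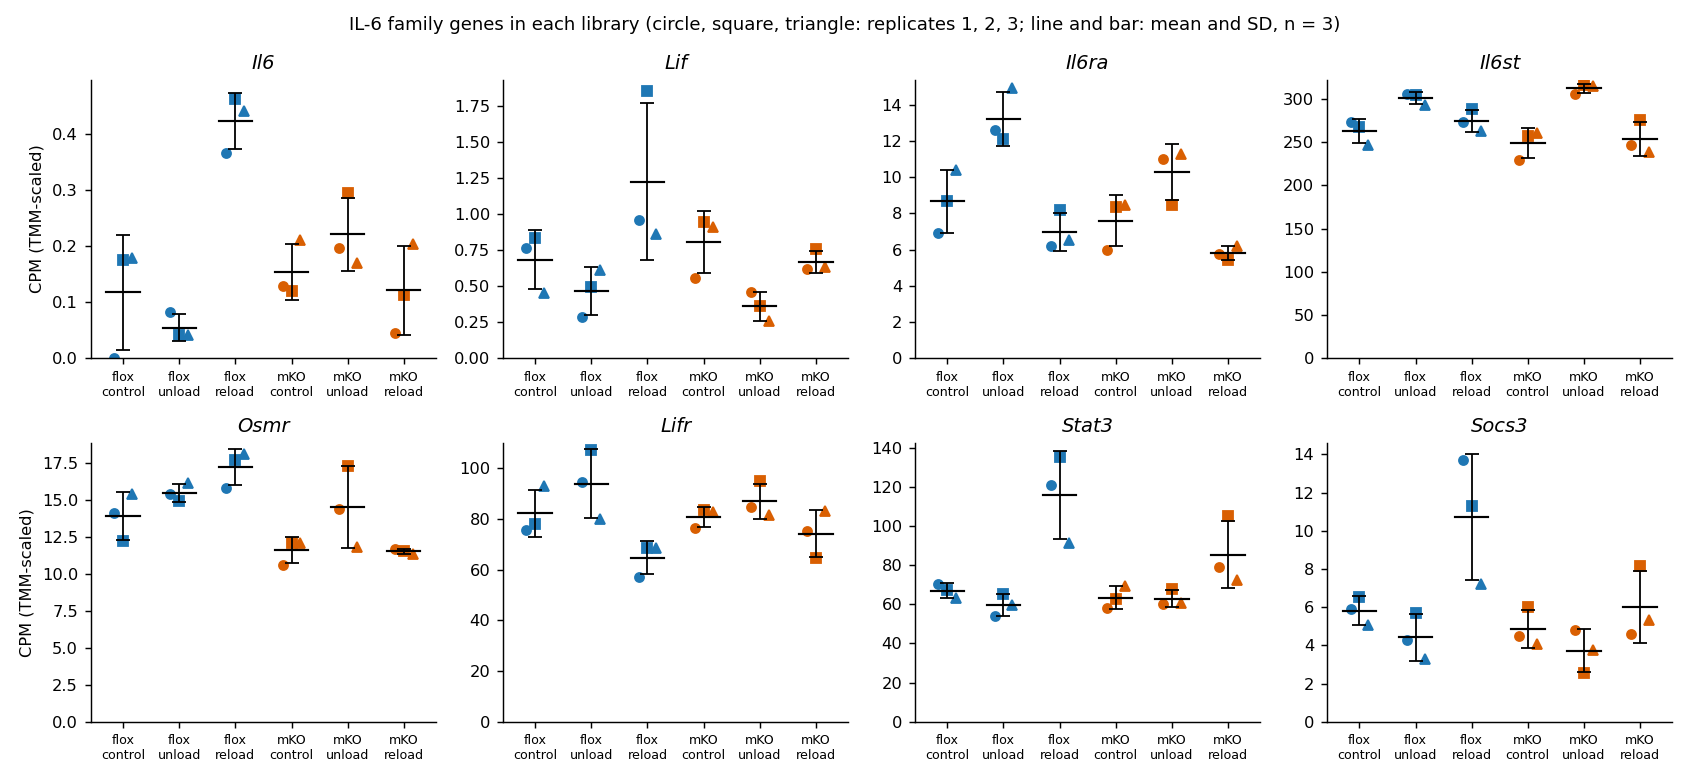
TMM-scaled CPM of the 8 genes in each library (points, replicates 1 to 3), with the mean and SD of each group (n = 3) and an axis from 0 in each panel. Il6 lies between 0.367 and 0.463 CPM in the flox reloading libraries and at or below 0.296 CPM in all others.

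Il6 (ENSMUSG00000025746, chr5:30013114-30019981, plus strand), the founding ligand of the family, was close to the detection floor. Its counts were 0, 8 and 8 in flox control, 4, 2 and 2 in flox unloading and 18, 25 and 23 in flox reloading, or 0, 0.175 and 0.18, then 0.0823, 0.0414 and 0.0409, then 0.367, 0.463 and 0.441 CPM. In mKO muscle the counts were 6, 6 and 10 in control, 9, 13 and 8 in unloading and 2, 6 and 10 in reloading, or 0.129, 0.121 and 0.212, then 0.197, 0.296 and 0.171, then 0.0457, 0.114 and 0.205 CPM. The 3 flox reloading libraries were above all 15 others, and the other 5 groups each overlapped the next in order of mean. In unloading every mKO library was above every flox library, the reverse of the order in reloading. No overlap between genotypes held for 22.4% of all genes tested in reloading, and the share in unloading is not given here. The 0 in flox control replicate 1 allows up to 3 counts, or 0.0639 CPM, for counting error only. Of the 17 Il6 counts above 0, 13 were even, as were 65% of all values from 1 to 10 in the table, and whether both reads of a pair were counted is not given in the sources used here.

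In flox muscle the log2 change of Il6 from unloading to reloading was 2.89 ± 0.69 (SE, adjusted p = 0.00372, 95% interval 1.44 to 4.35), and it stayed called without each single library. Against flox control it was 1.83 ± 0.63 (adjusted p = 0.0427). That call is marginal: among fits that left out 1 library it was kept only without mKO reloading replicate 1 or 3, and the adjusted p reached 0.117 without flox control replicate 1. It was also lost with no low-count filter (0.0537) and in a fit of the compared groups alone (0.0773). In mKO muscle the change from unloading to reloading was -0.83 ± 0.65 (adjusted p = 0.421). The genotype difference in that change was -3.72 ± 0.96 (95% interval -5.74 to -1.71), with an adjusted p of 0.162 in edgeR, 0.0438 in DESeq2 and 0.0205 with no low-count filter (0.0205 to 0.401 over all alternatives). In the authors' deposited table for this step Il6 was listed at -0.241 with an adjusted p of 0.0447, and the other 7 genes at 0.219 or more. For the 689 genes with a p under 0.01 in the authors' deposited table, 100% had the sign of the genotype difference in change fitted here and 41.7% that of the change within mKO muscle, and its fold changes are much closer to 0 than those fitted here. That difference in change is made up of values in both states, neither of them called. In unloading mKO minus flox was 1.96 ± 0.73 (adjusted p = 1, unadjusted p = 0.0158), and in reloading it was -1.77 ± 0.62 (adjusted p = 0.11). For the reloading value, leaving out flox control replicate 1 gave an adjusted p of 0.046 (0.046 to 0.322 over all single libraries left out).

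Lif (ENSMUSG00000034394, chr11:4257557-4272514, plus strand) encodes the ligand of the LIF receptor. It had 0.767, 0.831 and 0.45 CPM in flox control, 0.288, 0.496 and 0.613 in flox unloading and 0.959, 1.85 and 0.862 in flox reloading. In mKO muscle it had 0.558, 0.945 and 0.91 CPM in control, 0.459, 0.364 and 0.256 in unloading and 0.617, 0.758 and 0.635 in reloading. Both genotypes had their lowest mean in unloading. All 3 flox reloading libraries were above all flox control and unloading libraries, with replicate 2 far above the other two. The mKO unloading libraries lay below all mKO control and reloading libraries.

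Lif changed from unloading to reloading by 1.39 ± 0.36 (log2, SE, adjusted p = 0.00646) in flox muscle and by 0.9 ± 0.39 in mKO muscle (adjusted p = 0.118). Without flox reloading replicate 2, the flox value was 0.96 (adjusted p = 0.0666). The change from control to unloading in mKO muscle was -1.16 ± 0.38 (adjusted p = 0.0718; 0.0463 in DESeq2; 0.0459 with no low-count filter). From control to reloading in flox muscle it was 0.84 (adjusted p = 0.0947; 0.0468 under scaling by total counts). For Lif the genotypes differed in the change from unloading to reloading by -0.5 (95% interval -1.61 to 0.62, adjusted p = 0.795). In order of mean, only flox unloading and mKO reloading were neighbours with no overlap.

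**Figure D3:**
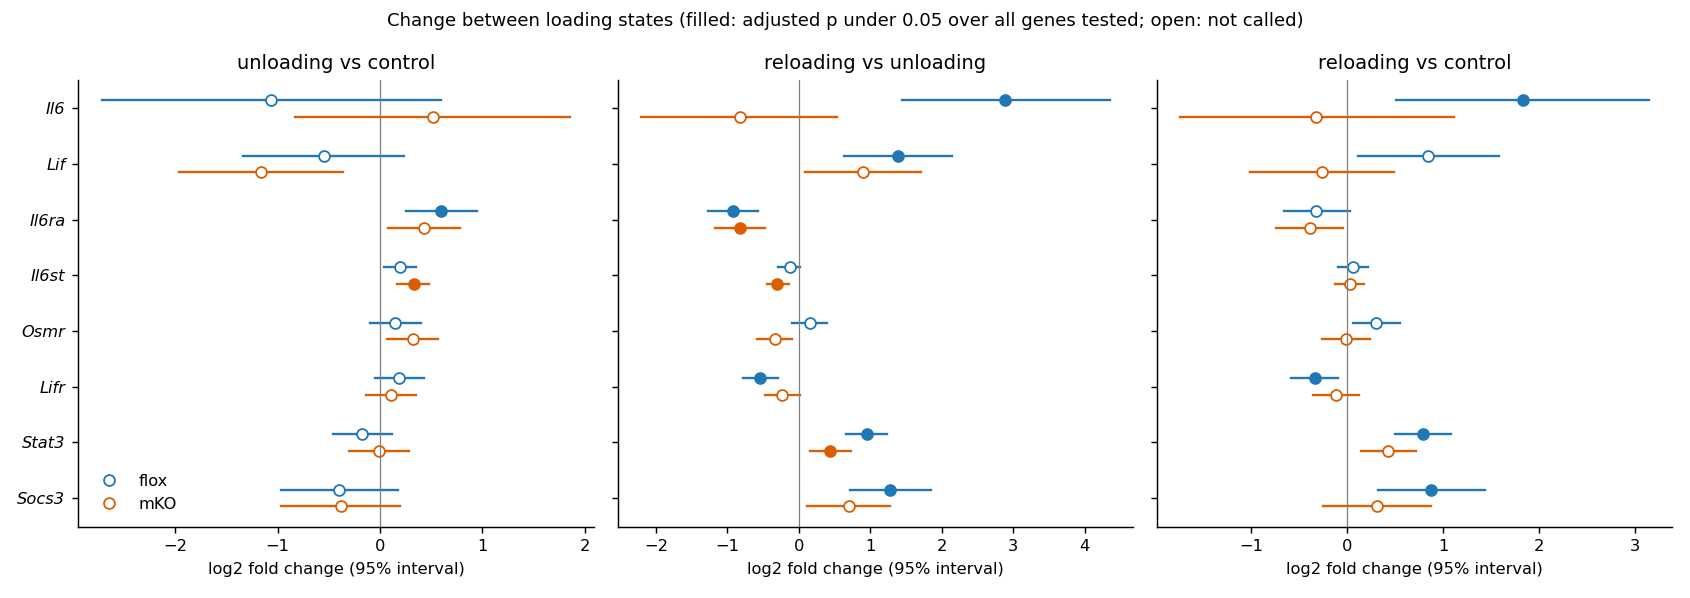
Log2 fold change of the 8 genes between loading states in flox and mKO muscle (points) with 95% intervals (lines), filled where the adjusted p over all genes is under 0.05. From unloading to reloading, Il6 is at 2.89 in flox and -0.83 in mKO muscle, while Il6ra is below 0 in both.

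Il6ra (ENSMUSG00000027947, chr3:89864059-89913196, minus strand) encodes the receptor chain that binds IL-6 and, once shed, lets IL-6 act on cells that lack it. Flox libraries had 6.92, 8.7 and 10.4 CPM in control, 12.6, 12.1 and 14.9 in unloading and 6.2, 8.19 and 6.53 in reloading. The mKO libraries had 5.97, 8.35 and 8.47 CPM in control, 11, 8.49 and 11.3 in unloading and 5.76, 5.44 and 6.19 in reloading. Within each genotype, every unloading library was above every control and reloading library. In order of mean, mKO reloading lay below flox reloading and mKO unloading below flox unloading with no overlap, and the neighbours between them overlapped. Neither genotype difference of Il6ra was called. No overlap between genotypes held for 22.4% of all genes tested in reloading, and the share in unloading is not given here.

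Il6ra rose from control to unloading by 0.6 ± 0.16 (log2, SE, adjusted p = 0.0376) in flox muscle. This call was lost without flox control replicate 1 or 2 or any single flox unloading library (adjusted p up to 0.171), and in a fit of the compared groups alone (adjusted p = 0.053). The mKO change was 0.43 ± 0.17 (adjusted p = 0.118; 0.0399 with no low-count filter). From unloading to reloading Il6ra fell in both genotypes, with log2 changes of -0.92 ± 0.17 in flox (adjusted p = 0.000377) and -0.82 ± 0.17 in mKO muscle (adjusted p = 0.00245). Both calls held without each single library. Between genotypes that change differed by 0.1 (95% interval -0.39 to 0.59). Of the Il6ra exon bases, 2.8% are shared with Gm42809 on the opposite strand, and the counting command in the file header names no strand option.

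Il6st (ENSMUSG00000021756, chr13:112464070-112510086, plus strand), the gene of the shared chain gp130, had the highest level per length and the narrowest spread. Flox libraries had 273, 268 and 247 CPM in control, 306, 305 and 293 in unloading and 273, 288 and 263 in reloading. The mKO libraries had 229, 257 and 261 CPM in control, 306, 316 and 315 in unloading and 247, 276 and 239 in reloading. All 6 unloading libraries were above all 12 others, and mKO unloading began just above the highest flox unloading library. The 4 control and reloading groups overlapped from neighbour to neighbour in order of mean.

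The rise of Il6st in mKO unloading against control was 0.33 ± 0.07 (log2, SE, adjusted p = 0.012), and it was not called without mKO control replicate 1 (adjusted p = 0.0618). The flox change was 0.2 ± 0.07 (adjusted p = 0.126; 0.0432 in DESeq2; up to 0.383 under other alternatives). From unloading to reloading Il6st fell in mKO muscle (-0.3 ± 0.07, adjusted p = 0.00863; 0.06 in a fit of the compared groups alone) and was at -0.13 ± 0.07 in flox muscle (adjusted p = 0.182). Between genotypes that change differed by -0.17 (95% interval -0.38 to 0.05).

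Osmr (ENSMUSG00000022146, chr15:6813577-6874969, minus strand) encodes the chain that pairs with gp130 to bind oncostatin M. Flox libraries had 14.1, 12.2 and 15.4 CPM in control, 15.4, 14.9 and 16.1 in unloading and 15.8, 17.7 and 18.1 in reloading. The mKO libraries had 10.6, 12.1 and 12.1 CPM in control, 14.4, 17.3 and 11.8 in unloading and 11.7, 11.5 and 11.3 in reloading. In reloading every mKO library was below every flox library, and 22.4% of all genes tested had no overlap between genotypes there. The mKO mean in reloading was 11.5 ± 0.201 CPM (SD, n = 3) against 17.2 ± 1.26 in flox. The control groups of the genotypes barely failed to overlap, with mKO at up to 12.1 CPM and flox from 12.2 CPM, whereas all other neighbours in order of mean overlapped. The share of all genes with no overlap in control is not given here.

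The genotype difference of Osmr was -0.58 ± 0.12 (log2, SE, adjusted p = 0.00874) in reloading, -0.26 ± 0.12 in control (adjusted p = 1) and -0.09 ± 0.12 in unloading (adjusted p = 1). In reloading it was not called without flox reloading replicate 2 (adjusted p = 0.0561) or mKO reloading replicate 3 (adjusted p = 0.0603). Osmr moved from unloading to reloading by 0.16 ± 0.12 in flox (adjusted p = 0.337) and -0.33 ± 0.12 in mKO muscle (adjusted p = 0.0573). The latter was called by DESeq2 (adjusted p = 0.0448), with a filter of 1 CPM in 3 libraries (0.0472) and without mKO unloading replicate 3 (0.0122; up to 0.296 without others). From control to reloading the flox change was 0.3 (adjusted p = 0.07; 0.0107 under scaling by total counts). Between genotypes the change from unloading to reloading differed by -0.49 (95% interval -0.84 to -0.14, adjusted p = 0.309). Macrophage and monocyte markers were also lower in reloaded mKO than in reloaded flox muscle, with a median log2 difference of -1.04. Of these 9 genes 7 were called, against 4.91% of all genes, and their part in the Osmr difference was not tested.

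Lifr (ENSMUSG00000054263, chr15:7090614-7197489, plus strand) encodes the chain that binds LIF and pairs with gp130. Flox libraries had 75.6, 78.1 and 92.9 CPM in control, 94.5, 107 and 79.9 in unloading and 57.2, 68.5 and 68.5 in reloading. The mKO libraries had 76.2, 83.5 and 82.6 CPM in control, 84.5, 94.8 and 81.5 in unloading and 75.2, 64.4 and 83 in reloading. Only the flox reloading group stood apart, below all flox control and unloading libraries. In order of mean all neighbouring groups overlapped.

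Lifr fell from unloading to reloading in flox muscle (log2 change -0.54 ± 0.12, SE, adjusted p = 0.00171), a call that held without each single library. It was at -0.23 ± 0.12 in mKO muscle (adjusted p = 0.187), and the genotype difference in the change was 0.31 (95% interval -0.04 to 0.65). The fall against flox control was -0.34 ± 0.12 (adjusted p = 0.0389). It was lost without flox control replicate 2 or 3 or flox reloading replicate 1 or 2 (adjusted p up to 0.185), and under scaling by total counts (-0.2, adjusted p = 0.214).

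Stat3 (ENSMUSG00000004040, chr11:100885098-100939540, minus strand), the gene of the transcription factor that carries the signal to the nucleus, had 70.5, 67.4 and 63 CPM in flox control, 53.8, 65.5 and 59.6 in flox unloading and 121, 135 and 91.1 in flox reloading. In mKO muscle it had 58.1, 62.8 and 69.4 CPM in control, 59.9, 68 and 60.7 in unloading and 78.8, 105 and 72.4 in reloading. All 6 reloading libraries were above all 12 others. The reloading groups of the genotypes overlapped, as did the 4 control and unloading groups from neighbour to neighbour in order of mean. Within each genotype, reloading replicate 2 had both the highest Stat3 level and the highest macrophage and monocyte sum, 407 CPM in flox and 189 CPM in mKO muscle. Lif and Il6st were also highest in replicate 2 of both reloading groups, whereas Il6, Il6ra, Osmr, Lifr and Socs3 were not. The part of these markers in the Stat3 level was not tested.

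In flox muscle Stat3 rose by 0.95 ± 0.14 (log2, SE, adjusted p = 4.93e-05) from unloading and by 0.79 ± 0.14 (adjusted p = 0.000525) from control, and both calls held without each single library. In mKO muscle it rose by 0.44 ± 0.14 from unloading (adjusted p = 0.031). That call was lost without mKO unloading replicate 1 or 3 or mKO reloading replicate 2 (adjusted p up to 0.2), and in a fit of the compared groups alone (adjusted p = 0.0556). Against mKO control the value was 0.43 ± 0.14 (adjusted p = 0.108; 0.048 in DESeq2; 0.000832 to 0.476 over all alternatives). The genotype difference in reloading was -0.44 ± 0.14 (adjusted p = 0.0739; 0.0346 in DESeq2; 0.0271 under scaling by total counts; 0.000513 with no low-count filter; 0.0171 without flox reloading replicate 3 and 0.00977 without mKO reloading replicate 2; up to 0.347 without others). For the change from unloading, mKO minus flox was -0.51 (95% interval -0.92 to -0.11, adjusted p = 0.363; 0.0179 with no low-count filter). With no low-count filter the Stat3 estimates were 0.43 (mKO reloading against control), -0.43 (genotype difference in reloading) and -0.51 (genotype difference in change). There the adjusted p moved and the size of the differences barely did. Stat3 shares 0.756% of its exon bases with Stat5a on the opposite strand.

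Socs3 (ENSMUSG00000053113, chr11:117966079-117970047, minus strand), the feedback inhibitor whose promoter holds the STAT palindrome shown above, had 5.88, 6.54 and 5.04 CPM in flox control, 4.28, 5.71 and 3.27 in flox unloading and 13.7, 11.3 and 7.2 in flox reloading. In mKO muscle it had 4.51, 5.99 and 4.06 CPM in control, 4.83, 2.57 and 3.76 in unloading and 4.59, 8.17 and 5.33 in reloading. Every flox reloading library was above every flox control and unloading library. In mKO muscle, reloading overlapped control and unloading, and its replicate 2 overlapped flox reloading. In order of mean all neighbouring groups overlapped.

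In flox muscle Socs3 rose by 1.28 ± 0.27 (log2, SE, adjusted p = 0.00147) from unloading, a call that held without each single library, and by 0.88 ± 0.27 (adjusted p = 0.0228) from control. The latter was lost without flox control replicate 1 or 3 or flox reloading replicate 1 or 2 (adjusted p up to 0.116). The mKO change from unloading was 0.7 ± 0.28 (adjusted p = 0.0875; 0.000394 with no low-count filter). The genotype difference in reloading was -0.83 ± 0.27 (adjusted p = 0.0812; 0.0332 in DESeq2; 0.0431 under scaling by total counts; 1.26e-05 with no low-count filter; 0.0312 without flox reloading replicate 3 and 0.0221 without mKO reloading replicate 2; up to 0.296 without others). With no low-count filter these Socs3 estimates stayed at 0.7 (mKO change from unloading) and -0.83 (genotype difference in reloading). There the adjusted p moved and the size of the difference did not. For the change from unloading, mKO minus flox was -0.58 (95% interval -1.39 to 0.23).

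**Figure D4:**
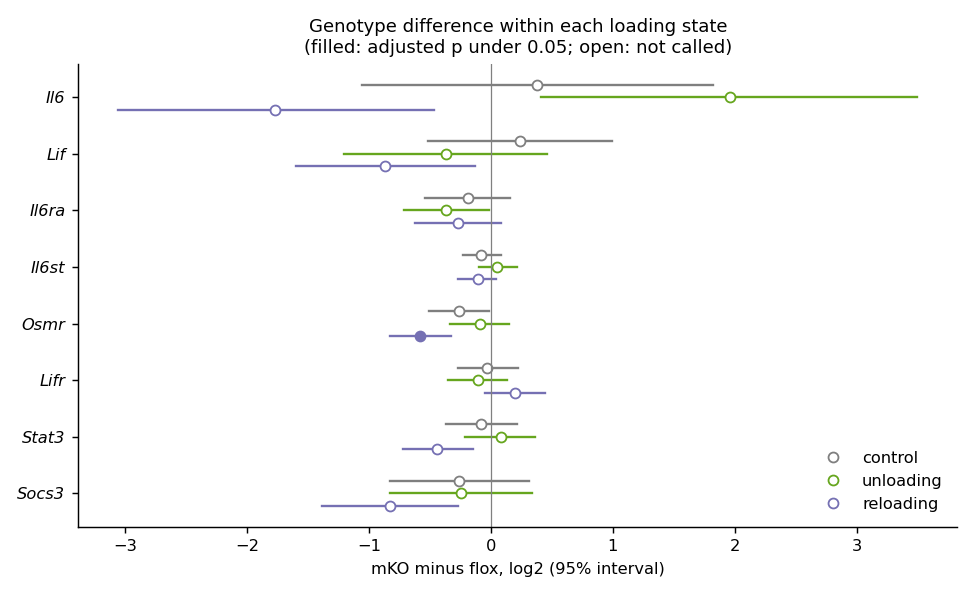
Log2 difference of mKO from flox muscle for the 8 genes in control, unloading and reloading (points) with 95% intervals (lines), filled where the adjusted p over all genes is under 0.05. The reloading value of Osmr at -0.58 is the 1 filled point.

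Between genotypes, 0 of 8 were called by edgeR in control (0% of all genes) and 0 of 8 in unloading (0%). At an unadjusted p under 0.05 there were 1 and 2, against 4.03% and 4.58% of all genes, and DESeq2 called 0 in both. In reloading, 5 of 8 were at an unadjusted p under 0.05, all 5 lower in mKO muscle, against 19.7% of all genes in either direction. These were Il6, Lif, Osmr, Stat3 and Socs3. Osmr alone passed the adjustment in edgeR, and DESeq2 called 3, Osmr, Stat3 and Socs3. Most calls over all genes had this direction too, with 686 of 875 lower in mKO muscle in reloading, or 1449 of 1485 under scaling by total counts. The genotype difference in change was called for 0 of 8 in each of the 3 pairs of loading states, against 0% of all genes for unloading against control, 0% for reloading against unloading and 0.522% for reloading against control. The unadjusted counts were 0, 3 and 2, against 4.11%, 10.5% and 13.3% of all genes, and DESeq2 called 0, 1 and 0, the 1 being Il6. With no low-count filter edgeR called Il6 and Stat3 for the change from unloading to reloading, so these calls depend on the filter and the tool.

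Across the 18 libraries the log2 CPM of Stat3 and Socs3 had a Pearson r of 0.808, and Lif had r of 0.721 with Stat3 and 0.709 with Socs3. Lifr ran the other way, with r of -0.757 to Stat3 and -0.689 to Socs3. Il6 had r of 0.474 with Stat3 and 0.33 with Socs3. These values describe libraries that share 6 group means and are given with no test. Among 12031 other genes that averaged 1 CPM or more, the 3 most like Stat3 were Ext1 (r = 0.968), Actb (0.965) and Gusb (0.962), and the 3 most like Socs3 were Tgfb1 (0.919), Cenpa (0.915) and Cotl1 (0.896). Lif was most like Mmp23 (0.924), Ctsh (0.921) and Fcrls (0.908), and Il6 most like Fam107b (0.784), Itga2b (0.775) and Dach1 (0.767). Il6ra was most like Car4 (0.951), Serinc3 (0.943) and Adgrf5 (0.919), and Lifr most like Lrrc61 (0.898), Fzd4 (0.896) and Crebrf (0.887). Il6st was most like Gsk3b (0.884), Cdkn1a (0.884) and Nav1 (0.876), and Osmr most like Ifi207 (0.841), Ppm1m (0.79) and Nox4 (0.765).

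Of 8 other ligand genes of the family, 4 passed the filter (Il11, Ctf1, Clcf1 and Ebi3). Osm, the gene of the main Osmr ligand oncostatin M, did not pass, with 0 to 8 counts per library and 0 in all 3 flox control libraries. From unloading to reloading, 0 of the 4 were called in flox and 0 in mKO muscle by edgeR or DESeq2 (0 at an unadjusted p under 0.05 in either, against 41.3% and 31.5% of all genes). Ctf1, the cardiotrophin-1 gene, had the highest level of the 4, with group means of 2.55 to 4.28 CPM per kilobase, against at most 0.558 for the other 3. It was lower in flox reloading than in flox control, with a log2 difference of -0.74 ± 0.17 (SE, edgeR adjusted p = 0.00357).

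Of the other receptor chains and the proteases that shed receptors, 6 genes in all, 3 rose in flox muscle from unloading to reloading, where 31.9% of all genes were called. Il27ra, the IL-27 receptor gene, rose by 1.43 ± 0.33 (log2, SE), and the shedding protease genes Adam17 and Adam10 by 0.55 ± 0.09 and 0.32 ± 0.08. Adam10 was not called without flox reloading replicate 2 (adjusted p = 0.0582). In mKO muscle Adam17 alone was called over this step (0.43 ± 0.09, adjusted p = 0.00219), after a fall from control to unloading (-0.39 ± 0.09, adjusted p = 0.012) that was lost without mKO control replicate 2 or mKO unloading replicate 1 or 3. Adam17 was also higher in flox reloading than in flox control (0.31 ± 0.09, adjusted p = 0.0151). That call was lost without flox control replicate 2 or flox reloading replicate 2 (adjusted p up to 0.085).

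Kinase, STAT and inhibitor genes moved in both directions. In flox muscle 5 of 11 were called from unloading to reloading, against 31.9% of all genes. Cish and Socs2, SOCS family inhibitors known as STAT5 targets, fell, with log2 changes of -2.85 ± 0.7 and -1.14 ± 0.42 (SE), as did the kinase gene Jak2 (-0.65 ± 0.17) and Stat5b (-0.64 ± 0.09). Jak1, named after its values were seen, rose by 0.39 ± 0.08. Socs2 (adjusted p = 0.0445) was lost without any of 9 single libraries, with an adjusted p of 0.425 without flox unloading replicate 2, and in DESeq2 (0.0539). In mKO muscle 2 of 11 were called over this step (18.3% of all genes), Stat5b lower (-0.58 ± 0.09) and Jak1 higher (0.28 ± 0.08, lost without mKO unloading replicate 1 or 3 or mKO reloading replicate 2 or 3, adjusted p up to 0.109). Stat5b had risen from control to unloading by 0.33 ± 0.09 in flox and 0.45 ± 0.09 in mKO muscle, the former lost without 5 of the 6 single libraries compared (adjusted p up to 0.138).

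Of the 4 pathway lists, that of known STAT3 target genes had the largest share of calls. The lists were chosen with earlier results of these data known, so this order is no test of STAT3 activity. From unloading to reloading in flox muscle 7 of 14 rose and 4 fell (31.9% of all genes called in either direction), with a median log2 change of 0.67 against 0 for all genes. Timp1, an inhibitor of metalloproteinases, rose by 4.06 ± 0.33 (SE) and the cyclin gene Ccnd1 by 2.35 ± 0.16. Cebpd, a transcription factor gene, and Lcn2, which encodes a lipocalin that binds iron carriers, fell, with log2 changes of -1.67 ± 0.55 and -1.63 ± 0.42. Cebpb and Pim1, named after their values were seen, also fell (-0.89 ± 0.26 and -0.84 ± 0.2). The call of Cebpd was lost without 4 of the 6 single libraries compared (adjusted p up to 0.161) and that of Cebpb without 3 (up to 0.102). In mKO muscle 2 of 14 rose and 4 fell (18.3% of all genes called), with a median of -0.26 against 0.01. Timp1 rose by 3.04 ± 0.34 and Ccnd1 by 1.77 ± 0.16, while Cebpd (-2.21 ± 0.57), Lcn2 (-1.75 ± 0.43), Pim1 (-1.17 ± 0.2) and Cebpb (-0.9 ± 0.26) fell. Cebpd was lost without mKO reloading replicate 1 (adjusted p = 0.054) and Cebpb without mKO unloading replicate 3 or mKO reloading replicate 1 or 2 (up to 0.129).

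**Figure D5:**
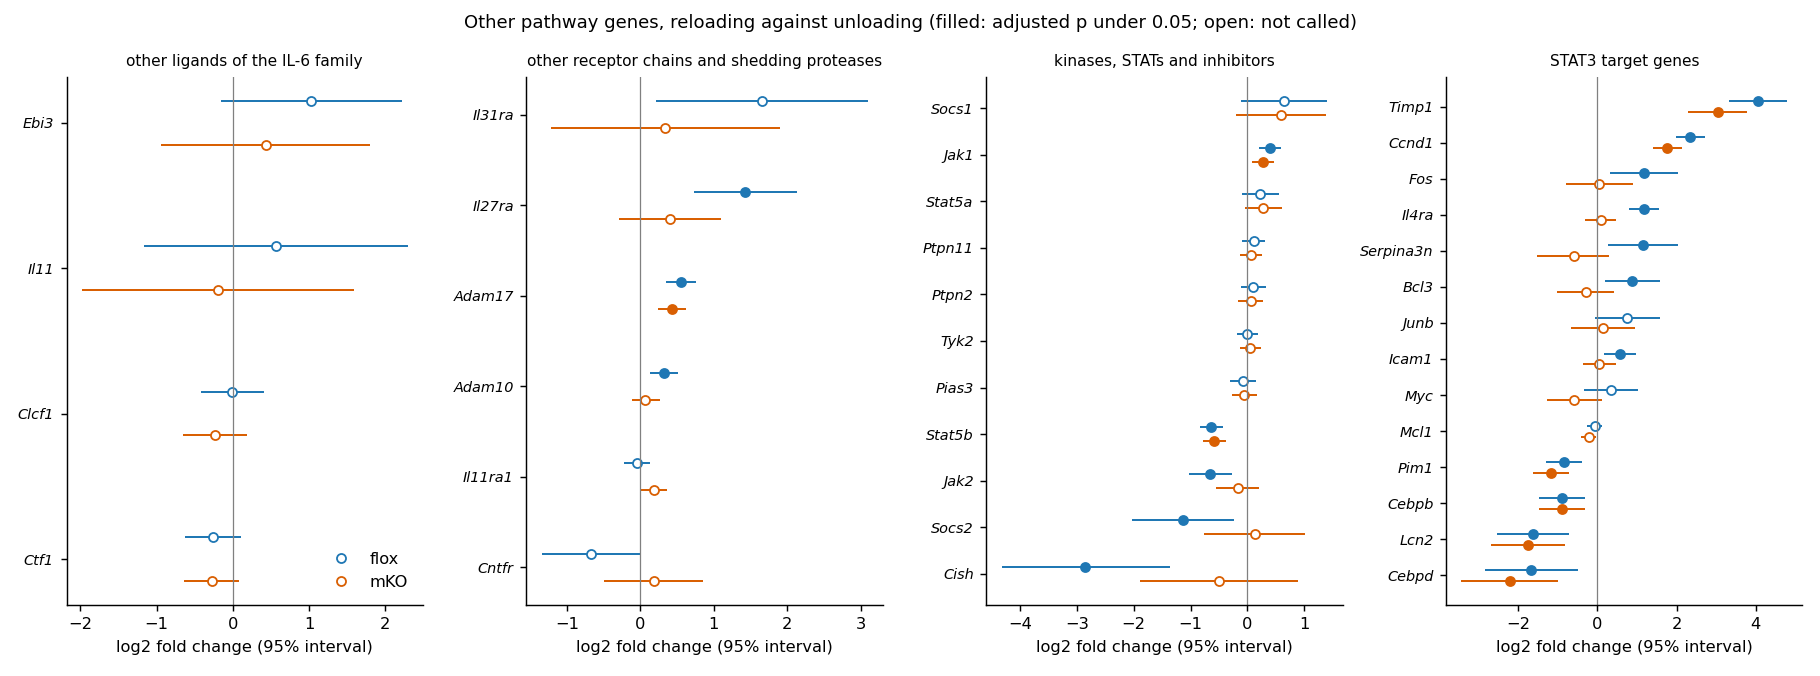
Log2 fold change from unloading to reloading of the tested genes of 4 pathway lists in flox and mKO muscle (points) with 95% intervals (lines), filled where the adjusted p over all genes is under 0.05. Timp1 is highest in its list in both genotypes (4.06 and 3.04), and Cish is lowest in its list in flox muscle (-2.85).

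From control to unloading 4 of the 14 STAT3 target genes were called in flox muscle (5.74% of all genes). Lcn2 rose by 2.65 ± 0.46 (log2, SE) and Pim1 by 1 ± 0.2, whereas Ccnd1 (-1.61 ± 0.16) and the interleukin-4 receptor gene Il4ra (-0.89 ± 0.17) fell. In mKO muscle 3 were called (7.75% of all genes), Lcn2 (2.44 ± 0.45), Pim1 (0.94 ± 0.2) and Ccnd1 (-1.24 ± 0.16). All 4 flox calls held without each single library, flox unloading replicate 3 with its neutrophil marker sum of 10.0 CPM included. In mKO muscle Pim1 was lost without mKO unloading replicate 1 (adjusted p = 0.0511).

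Against flox control, reloaded flox muscle had 5 STAT3 target genes higher and 1 lower, against 22.6% of all genes called. Timp1 was higher by 4 ± 0.34, the serpin gene Serpina3n by 1.88 ± 0.42, the AP-1 gene Fos by 1.55 ± 0.4 and the NF-kB cofactor gene Bcl3 by 1.09 ± 0.32 (log2, SE). Ccnd1 was higher by 0.74 ± 0.15 and Cebpb was at -0.9 ± 0.26. In the same comparison Cish was at -2.25 ± 0.69, Socs2 at -1.4 ± 0.42, Stat5b at -0.31 ± 0.09 and Jak1 at 0.26 ± 0.08. Leaving out single flox control or reloading libraries ended the call of Jak1 in 6 of 6 cases, of Cish in 5, of Socs2, Bcl3 and Cebpb in 4 each, of Stat5b in 2 and of Fos in 1 (flox reloading replicate 2), with adjusted p up to 0.115. Stat5b was also lost under scaling by total counts (adjusted p = 0.228). In mKO muscle Timp1 was the 1 pathway gene called against control (1.91 ± 0.31, adjusted p = 0.00573).

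The genotypes differed in 3 of the 14 STAT3 target genes in reloading, all lower in mKO muscle (5 called by DESeq2). Over all genes 4.91% were called, 686 of 875 lower in mKO muscle, or 1449 of 1485 under scaling by total counts. Il4ra had 19.7, 18 and 15.2 CPM in flox and 9.12, 8.83 and 7.87 in mKO libraries. Timp1 had 10.4, 13.2 and 9.75 CPM in flox and 4.04, 5.34 and 4.02 in mKO libraries. Serpina3n had 4.67, 10.6 and 12.1 CPM in flox and 2.67, 4.47 and 1.56 in mKO libraries. None of the 3 overlapped between genotypes, as for 22.4% of all genes tested, although the highest mKO value of Serpina3n was just under the lowest flox value. The log2 differences were -1.04 ± 0.17 for Il4ra (SE, adjusted p = 0.00236), -1.32 ± 0.28 for Timp1 (adjusted p = 0.0116) and -1.65 ± 0.42 for Serpina3n (adjusted p = 0.0291). Il4ra held without each single library. Timp1 was lost without flox reloading replicate 2 or mKO reloading replicate 1 or 3 (up to 0.0846), and Serpina3n without flox reloading replicate 2 or 3 or mKO reloading replicate 1 or 3 (up to 0.172).

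All 14 STAT3 target genes had a log2 difference below 0 in that comparison, with a median of -0.49 against 0 for all genes. That list was chosen with earlier results of these data known, so the shared sign is a description and no test. Of the other 3 lists, 0 genes were called by edgeR, with 0, 2 and 1 at an unadjusted p under 0.05 (19.7% of all genes) and 1 called by DESeq2, a receptor or protease gene. The macrophage and monocyte sums of 278 to 407 CPM in flox and 133 to 189 CPM in mKO reloading stand beside these differences, and their part in them was not tested.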

How the data were processed

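RNA was polyA-selected and libraries were made with a stranded mRNA kit, per the labels' protocols. The submitters' processing notes name STAR 2.7.3a, the build GRCm38.p6 and featureCounts 2.0.3, whereas the file header names featureCounts 1.6.4 and an annotation of release 94. The deposited counts are raw and their header's command names no strand or pair option. The authors' deposited tables give log2 fold changes with their errors, p-values and a mean signal per gene, with DESeq2 as the tool per the submitters' processing notes. Library totals of 45069595 to 51592566 counts make counting error small for all 8 genes but Il6 and Lif.

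Counts were tested with the quasi-likelihood F test of edgeR 4.0.16 (R 4.3.3, limma 3.58.1) in 1 model of 6 group means over 18 libraries, with TMM factors, edgeR's low-count filter and Benjamini-Hochberg adjustment over 17833 genes. Comparisons covered changes between loading states within each genotype, genotype differences within each state, and genotype differences in change, 12 in all. Standard errors come from the F statistic, and log2 CPM for correlations used a prior count of 2. All 8 genes and Zfp697 are named, up to 4 called genes per pathway list and comparison with the largest absolute change, and the 3 genes most correlated with each of the 8. In some comparisons further called genes of a pathway list are named beyond this rule. Members and lists were chosen with earlier results of these data known. Alternatives were other scalings, other low-count filters, a replicate block, DESeq2 1.42.0, the compared groups alone, and each library left out. Pathway genes were counted by list with no list test, and some are not reported here. All 153 pairs of libraries differed by more than counting noise (chi-square per degree of freedom 17.8 or more), so none was counted as a copy. By this measure mKO reloading replicate 2 was closer to flox reloading replicates 1 to 3 (39.3, 44.7 and 34.2) than to mKO reloading replicates 1 and 3 (66.5 and 58). Some Stat3 and Socs3 calls depend on that library, as given above. Likewise flox unloading replicate 1 was closer to mKO unloading replicate 1 (21.8) than to its own group (40.8 and 52.6). The reason was not tested.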

Additional observations from a re-analysis of the deposited data

Results flagged for a closer look

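Timp1, a STAT3 target gene that encodes an inhibitor of metalloproteinases, was the 1 gene among the 8 and their pathway lists whose change differed between genotypes in the edgeR fit of all 18 libraries with its low-count filter. Other settings called more of these genes, and the shares of all genes called under them are not given here. For the change from unloading to reloading, edgeR with no low-count filter called Il6 and Stat3. It also called 4 STAT3 target genes, 3 kinase, STAT or inhibitor genes and 1 receptor or protease gene. DESeq2 called Il6 and 1 STAT3 target gene for that change. The mean of Timp1 was 0.691 CPM in flox control and 11.1 in flox reloading, against 1.19 in mKO control and 4.47 in mKO reloading. The change from control to reloading was smaller in mKO muscle by a log2 difference of -2.09 ± 0.45 (SE, edgeR adjusted p = 0.0452), where 0.522% of all genes were called. The call was lost in 11 of 18 fits that left out 1 library, among them each of the 6 control libraries, flox reloading replicates 1 and 2, mKO reloading replicates 1 and 3 and mKO unloading replicate 1, with an adjusted p up to 0.158. The macrophage and monocyte marker sum rose from 130 to 136 CPM in flox control to 278 to 407 in flox reloading, and was 110 to 166 in mKO control and 133 to 189 in mKO reloading. Its part in the difference was not tested.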

How the results depend on the processing

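Of 96 values (8 genes in 12 comparisons) 16 were called, 8 of these held without each single library, and 0 of the 16 reversed under any alternative. Of 55 called pathway values 30 held without each single library and 0 reversed. The number of the 8 genes called (given as 1, 4, 1, 3, 0, 1 and 0) moved as follows. For flox unloading against control it was 0 with the compared groups alone and 2 with DESeq2, and 0 to 1 with single libraries left out. For flox reloading against control it was 5 with total counts (Lif and Osmr added, Lifr lost) and 1 to 4 with single libraries left out. There the call of Il6 was lost with no low-count filter (adjusted p = 0.0537) and with the compared groups alone (0.0773). For mKO unloading against control it was 3 with no low-count filter, 2 with DESeq2 and 0 to 2 with single libraries left out. For mKO reloading against unloading it was 1 with the compared groups alone, 4 with DESeq2 and with a filter of 1 CPM in 3 libraries (Osmr added in both), and 4 with no filter (Socs3 added). For mKO reloading against control it was 1 with no filter and 1 with DESeq2. For mKO against flox in reloading it was 3 with total counts, 3 with no filter, 3 with DESeq2 and 0 to 3 with single libraries left out. For the genotype difference in change from unloading to reloading it was 2 with no filter and 1 with DESeq2. The STAT3 target genes called went from 3 to 8 with no filter and 5 with DESeq2 for mKO unloading against control, and from 3 to 6 with total counts, 7 with no filter and 5 with DESeq2 for mKO against flox in reloading. Calls over all genes moved with the setting too. For flox unloading against control they went from 1024 to 1651 with no filter, 1543 with DESeq2 and 788 with the compared groups alone. For mKO against flox in reloading they went from 875 to 1485 with total counts. Shares of all genes for the remaining settings are not given here, so the shifts are not particular to these genes. The cause of these shifts was not tested.

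Same-numbered libraries of different groups correlated between -0.074 and 0.126 in their deviations from group means (median 0.024, 2 of 45 pairs over 0.1). Differently numbered libraries were not compared, so these values do not exclude a shared batch. With replicate number as a block, 2 of the 8 genes were called for mKO against flox in reloading in place of 1, with Stat3 added (-0.44, adjusted p = 0.0374), and no other call among the 8 changed.

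Scaling by total counts moved the median log2 change of all genes by 0.109 for flox reloading against unloading, 0.146 for flox reloading against control, -0.134 for mKO against flox in reloading and -0.137 for the genotype difference in change from control to reloading. Higher calls over all genes went from 3032 of 5692 to 3987 of 5556 in the first of these and from 2193 of 4035 to 3652 of 4539 in the second. Under it the uncalled genotype difference in change turned sign for Socs3 from control to unloading (-0.03) and reached 0 for Il6ra from unloading to reloading.

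With single libraries left out, 12 uncalled values spanned 0. Within mKO muscle these were Stat3 in unloading against control (-0.07 to 0.06) and, in reloading against control, Il6 (-0.89 to 0.05), Il6st (-0.04 to 0.07) and Osmr (-0.08 to 0.02). Between genotypes they were Il6 (-0.21 to 0.8) and Lifr (-0.08 to 0.07) in control and Osmr (-0.24 to 0.04) in unloading. For the genotype difference in change they were Lifr (-0.19 to 0.02) and Socs3 (-0.21 to 0.24) from control to unloading, Il6ra (-0.02 to 0.23) from unloading to reloading, and Il6ra (-0.23 to 0.07) and Il6st (-0.1 to 0.01) from control to reloading. Depth limits Il6, with at most 25 counts per library.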
